A study of Mus musculus with 28 samples.

Results

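Heat shock chaperones help proteins to fold and keep damaged ones from clumping. The class is followed here in 10 genes, taken by gene symbol from the deposited table of counts: Hspa1a, Hspa1b, Hspa8, Hspa5, Hsph1, Hspb1, Dnajb1, Dnaja1, Hsp90aa1 and Hsp90ab1. They are 10 of 24062 genes in the table, and all 10 passed the filter on low counts together with 16369 genes in all. Bulk RNA-seq measured poly(A) RNA in 28 libraries from the hippocampus of female mice, in 7 groups of 4 libraries. The 3xTg mice model Alzheimer's disease with transgenes for human amyloid precursor protein and human tau, driven in neurons by a Thy1 cassette, in a line with a mutant presenilin gene. The wild-type mice (WT) are labelled BL6129 and carry none of these. The 3xTg groups received NAVI (navitoclax, also called ABT263, which blocks the survival proteins of the BCL-2 family), DQ (dasatinib with quercetin) or 1 of 2 vehicles labelled VehN and VehD. The WT groups received NAVI, DQ or a vehicle labelled Veh. All groups share the sex and the tissue, and the labels used here give neither age nor dose.

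The Hsp70 proteins bind exposed stretches of unfolded proteins and let go of them with the use of ATP. Proteins with a J domain, such as Dnajb1 and Dnaja1, bring them clients and start that cycle, the Hsp110 protein Hsph1 resets it, and the Hsp90 proteins take over nearly folded clients such as kinases and steroid receptors. The small heat shock protein Hspb1 holds clients without using ATP. When proteins unfold in the cytosol, heat shock factors bind heat shock elements in front of the inducible genes, whereas unfolding in the endoplasmic reticulum (ER) acts through a separate response that reaches Hspa5, also known as BiP. Hspa8 and Hsp90ab1 are known as constitutive forms that neurons express at high level, and tau is among the clients of Hsp70 and Hsp90.

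Libraries held 32080861 to 54019519 counts, and levels are given as CPM, counts scaled to library size, after TMM scaling. App, which here may also take reads of the human transgene, lay between 2410.2 and 3805 CPM in the 16 3xTg libraries and between 1470 and 1800 CPM in the 12 WT libraries. All 10 markers of hippocampal neurons were present in every library, with a lowest count of 236. Markers of tissue next to the hippocampus varied widely: the summed level of 12 choroid plexus markers ran from 414 to 7373 CPM in WT and from 380.3 to 8873 in 3xTg, and that of 12 thalamus markers from 178 to 431 and from 182 to 965, with 2 thalamus markers at 0 in at least 1 library. The 8 libraries with the highest thalamus scores were spread over 5 groups. In such tissue samples fewer cells of a type and less RNA per cell cannot be told apart. The labels do not say that libraries come from separate animals, so p-values measure the spread between these libraries.

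Hspa1a and Hspa1b, the stress-inducible Hsp70 genes, are near copies of each other. Their open reading frames were identical in 1918 of 1929 aligned positions (99.43%), against 74.1% between Hspa1a and Hspa8 and 59.7% between Hspa1a and Hspa5, so reads could be assigned to either and the separate counts are uncertain. On mm10 both lie on the minus strand of chromosome 17, Hspa1a at chr17:34969190-34972156 and Hspa1b at chr17:34956436-34959238. The 250 bases before each annotated start, from RefSeq (mm10, GRCm38.p6), are shown because they carry the heat shock element of both genes and differ at only 3 positions, in capitals. The windows are chr17:34972157-34972406 and chr17:34959239-34959488, minus strand, 5′ to 3′.
Hspa1a: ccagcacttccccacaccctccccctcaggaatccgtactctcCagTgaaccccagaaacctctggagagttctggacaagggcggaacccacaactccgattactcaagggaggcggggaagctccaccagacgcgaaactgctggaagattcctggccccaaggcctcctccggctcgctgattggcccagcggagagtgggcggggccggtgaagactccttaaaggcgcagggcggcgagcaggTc
Hspa1b: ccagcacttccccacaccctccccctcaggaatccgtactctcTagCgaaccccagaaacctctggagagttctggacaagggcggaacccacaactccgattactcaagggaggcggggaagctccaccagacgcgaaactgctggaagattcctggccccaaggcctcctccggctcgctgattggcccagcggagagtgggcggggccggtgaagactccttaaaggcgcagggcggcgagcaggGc

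A heat shock element was searched as GAANNTTC or TTCNNGAA within 250 bases before the start. Each pattern is its own reverse complement, so 1 strand covers both, and no 2 matches of the 10 genes overlapped. GAANNTTC was present in 6.69% of 32851 RefSeq windows of that length, TTCNNGAA in 7.17%, and either in 12.8%. Windows were at hand for 7 of the 10 genes, all but Hspa8, Hsp90aa1 and Hsp90ab1, with 3 for Dnaja1, 2 each for Hsph1 and Dnajb1 and 1 for each of the others. They end at RefSeq starts, whereas gene positions are those of GENCODE on the same build, so a window can reach into the GENCODE span of a gene. The windows of Hspa5 and Hsph1 did so in part. Each window of Dnaja1 and a window of Dnajb1 lay wholly inside that span, so they are not shown to lie in front of these genes. A match was found for 5 genes: Hspa1a, Hspa1b, Hsph1, Dnaja1 and Hspb1, the last with a pair of matches. The following 30-base stretches on the strand of each gene show where the inducible genes carry the element, with its fixed bases in capitals.
Hspa1a, chr17:34972242-34972271, minus strand: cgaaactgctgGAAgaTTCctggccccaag
Hspa1b, chr17:34959324-34959353, minus strand: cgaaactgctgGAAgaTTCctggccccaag
Hsph1, chr5:149636351-149636380, minus strand: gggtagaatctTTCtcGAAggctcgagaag
Dnaja1, chr4:40722333-40722362, plus strand: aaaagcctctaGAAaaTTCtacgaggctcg
Hspb1, chr5:135887791-135887820, plus strand: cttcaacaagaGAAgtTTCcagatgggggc
Hspb1, chr5:135887811-135887840, plus strand: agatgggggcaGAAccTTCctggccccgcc

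In the Hsp70 pair the element stood 104 to 97 bases before the RefSeq start, and in Hspb1 117 to 110 and 97 to 90. In Hsph1 the same element lay 33 to 26 bases before one start and 54 to 47 before the other, inside the GENCODE span of the gene. In Dnaja1 it lay 124 to 117 bases before 1 of the 3 starts, inside the GENCODE span of the gene, and the windows of the other starts held no match. Both windows of Dnajb1, including the window inside its GENCODE span, held neither pattern, which says only that these letters are not in those bases. A match describes the sequence and was not tested as a binding site.

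Per length of exon, the genes fell into a high and a low class. Hsp90ab1 had the highest median level over the 28 libraries, 770.0 CPM per kb, followed by Hspa8 (325 CPM per kb), Hsp90aa1 (279) and Hspa5 (91.8). Hsph1 was at 59.2, Dnaja1 at 24.4 and Dnajb1 at 19.3 CPM per kb. Hspb1 (1.83), Hspa1b (1.36) and Hspa1a (1.08) made up the low class. Among 15590 tested genes with a known length, Hspa8 stood at the 99.8th percentile and Hspa1a at the 26.9th. The constitutive Hspa8 exceeded the sum of Hspa1a and Hspa1b in CPM per kb by 86.7-fold to 177-fold in the 28 libraries, with a median of 124-fold. How reads matching both genes of the pair were counted is not given. If such reads were left out, the levels and the sum of the pair are too low and these folds too high.

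**Figure D1:**
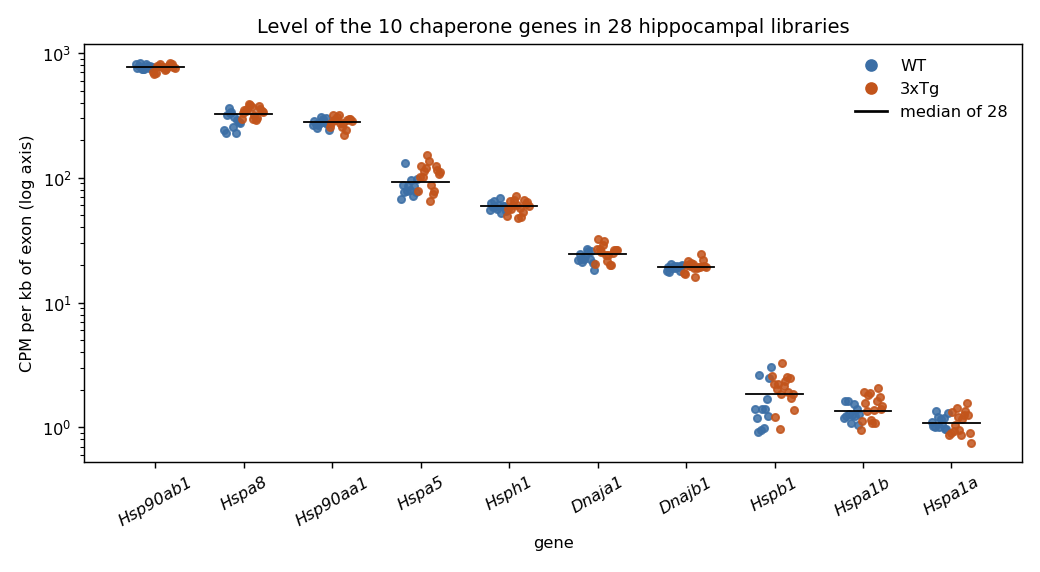
Level of the 10 chaperone genes in CPM per kb of exon on a log axis, with a point for each of 28 libraries coloured by genotype and a line at the median. Hsp90ab1, Hspa8 and Hsp90aa1 lie above 220 CPM per kb in every library, while Hspa1a, Hspa1b and Hspb1 lie below 3.3.

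The inducible pair showed no called difference in any comparison. Hspa1a CPM in WT were 3.25, 3.06, 2.99 and 3.996 with Veh, 3.56, 2.99, 3.48 and 3.17 with NAVI, and 3.50, 2.88, 2.87 and 3.86 with DQ. In 3xTg they were 2.59, 2.68, 3.90 and 2.76 with VehN, 3.11, 4.23, 3.57 and 2.81 with VehD, 2.58, 3.45, 3.73 and 3.98 with NAVI, and 4.61, 3.70, 2.68 and 2.22 with DQ. The groups overlapped throughout, and the 3xTg DQ group held both the highest and the lowest library. These levels rest on 92 to 232 counts a library for Hspa1a and 99 to 290 for Hspa1b. Hspa1b CPM ran from 2.90 to 4.55 over the 12 WT libraries, from 2.66 to 5.37 with VehN and VehD in 3xTg, and from 3.03 to 4.58 with NAVI in 3xTg. With DQ in 3xTg Hspa1b stood at 5.76, 4.92, 3.90 and 4.18, against 3.48, 3.91, 2.90 and 3.57 with DQ in WT. Only the lowest of the 3xTg libraries was within the WT range there, and the difference of 0.44 on the log2 scale (SE 0.202) did not pass (edgeR adjusted p = 0.264). In that comparison Hspa1a differed by 0.01 (edgeR adjusted p = 0.975), and the sum of the pair by 0.25, without a call. Between genotypes with vehicle the log2 difference was -0.05 (95% interval -0.38 to 0.27) for Hspa1a and 0.05 (-0.29 to 0.39) for Hspa1b.

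Hspb1 was the most variable of the 10, with a 3.58-fold range over the libraries at 43 to 171 counts. With NAVI its CPM were 2.22, 2.43, 2.63 and 1.98 in 3xTg and 0.982, 1.46, 1.02 and 1.45 in WT. All 4 3xTg libraries lay above all 4 WT libraries, a pattern that 6.97% of all tested genes showed in this comparison. The log2 difference was 0.91 (SE 0.336) and missed the threshold (edgeR adjusted p = 0.0930). With vehicle, WT libraries were at 1.43, 1.23, 0.939 and 2.72 CPM, VehN at 2.66, 2.29, 1.24 and 2.09, and VehD at 2.29, 1.002, 1.89 and 3.36. These groups overlapped (log2 0.42, SE 0.293, edgeR adjusted p = 0.320).

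Hspa8, the constitutive Hsp70 of the cytosol at chr9:40800984-40810087 (mm10, plus strand), was the gene whose level differed between genotypes in 2 comparisons that share no library. With vehicle, its CPM were 1046, 990.0, 1373 and 1553 in WT, 1277, 1429, 1489 and 1468 in 3xTg with VehN, and 1535, 1668, 1652 and 1592 in 3xTg with VehD. The groups overlapped, since 2 WT libraries lay within or above the VehN range. Hspa8 rose in 3xTg by 0.28 on the log2 scale, 1.22-fold (SE 0.0933, 95% interval 0.10 to 0.47, edgeR adjusted p = 0.0449). With DQ, CPM were 991, 1243, 1198 and 1179 in WT and 1613, 1526, 1466 and 1438 in 3xTg. Here the 2 groups did not overlap, and Hspa8 was higher in 3xTg by 0.39, 1.31-fold (SE 0.107, 95% interval 0.18 to 0.60, edgeR adjusted p = 0.0432). The snoRNA genes Snord14c, Snord14d and Snord14e lie inside Hspa8 on the same strand, so part of the reads there could belong to either.

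With NAVI the Hspa8 levels of the genotypes were alike in mean but not shown to be equal. CPM were 1422, 1443, 1098 and 1326 in WT and 1269.6, 1371, 1243 and 1308 in 3xTg, with each 3xTg library inside the WT range. The log2 difference was -0.03 (95% interval -0.24 to 0.18, edgeR adjusted p = 0.890). A change of the genotype difference with NAVI was tested as such and did not pass for Hspa8 (log2 -0.22, SE 0.151, edgeR adjusted p = 0.320). Within 3xTg, Hspa8 differed from VehN by -0.13 with NAVI (edgeR adjusted p = 0.435) and from VehD by -0.09 with DQ (edgeR adjusted p = 0.99991). All 4 VehN libraries lay below all 4 VehD libraries (log2 -0.19, edgeR adjusted p = 0.99993), as in 1.23% of all genes tested between these vehicles.

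Both calls of Hspa8 were close to the threshold. With vehicle the call held in 8 of 21 other settings (log2 0.18 to 0.41, edgeR or DESeq2 adjusted p from 0.00793 to 0.221), and it was lost without WT Veh replicate 1 (0.21, adjusted p = 0.198), without WT Veh replicate 2 (0.18, adjusted p = 0.157), without VehN replicate 2, 3 or 4 and without each VehD library. With DQ it held in 6 of 17 (log2 0.31 to 0.43, adjusted p from 0.0172 to 0.287), and it was lost without WT DQ replicate 1, 3 or 4 and without each 3xTg DQ library. The 8 astrocyte markers, none at 0, moved with genotype as well: their summed level was 6644 to 7790.1 CPM in WT and 7550.4 to 9154 in 3xTg, and their scores did not overlap. Over the 28 libraries Hspa8 and the astrocyte score had r = 0.469 (rho = 0.367, permutation, adjusted p = 0.0605 over 70 relations), r = 0.501 without the 2 farthest libraries, and r = -0.225 after each group mean was subtracted. The summed level of 8 endothelium markers was 208 to 339 CPM in WT and 157 to 306 in 3xTg. Hspa8 and the endothelium score had r = -0.535 (rho = -0.511, permutation adjusted p = 0.0377 for r and 0.056 for rho). That r was -0.381 without the 2 farthest libraries and -0.256 after each group mean was subtracted. The part of either set of markers in the result was not tested.

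**Figure D2:**
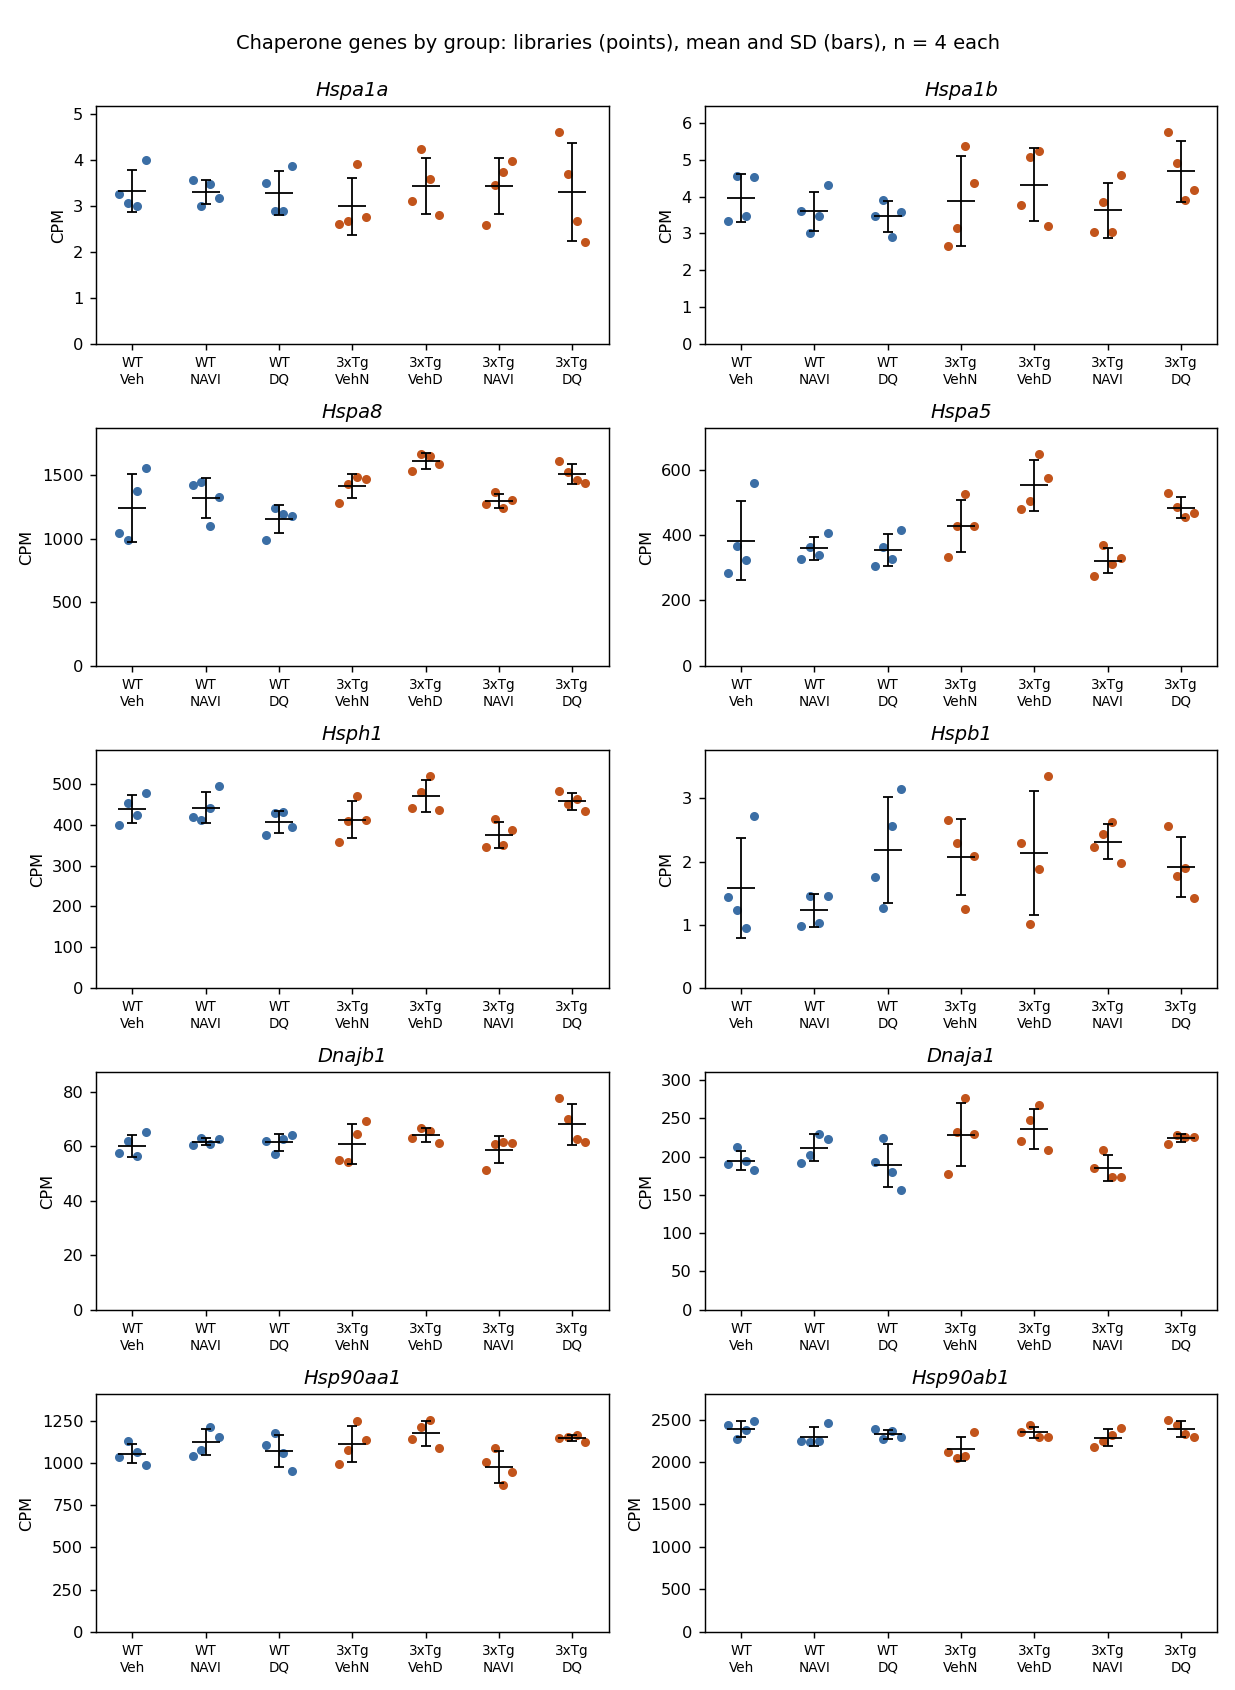
CPM of each of the 10 genes in 7 groups, with a point per library, a bar at the mean and whiskers of 1 SD (n = 4 each), every axis starting at 0. For Hspa8 the 3xTg libraries with DQ (1438 to 1613 CPM) lie above all WT libraries with DQ (991 to 1243), while those with NAVI lie within the WT range.

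Hspa5 encodes the Hsp70 of the ER and lies at chr2:34771970-34777547 (mm10, plus strand). With vehicle, its CPM were 285, 367, 324 and 559 in WT, 333, 429, 526 and 427 with VehN, and 479, 505, 649 and 576 with VehD. WT Veh replicate 4 stood among the 3xTg libraries, and the log2 difference of 0.34 (SE 0.138) missed the threshold (edgeR adjusted p = 0.0913), but was 0.59 without that library (edgeR adjusted p = 0.00574). It also passed without VehN replicate 1 (0.39, edgeR adjusted p = 0.0438). The calls over all genes went from 2142 to 873 without WT Veh replicate 4 and to 3482 without VehN replicate 1. With DQ, Hspa5 CPM were 528, 487, 455 and 467 in 3xTg and 304, 364, 328 and 417 in WT. The groups did not overlap, and the log2 difference of 0.46 (SE 0.157) missed the threshold (edgeR adjusted p = 0.129). With NAVI, CPM were 276, 368, 312 and 329.6 in 3xTg and 328, 365, 339 and 408 in WT, with overlapping groups (log2 -0.16, edgeR adjusted p = 0.505). Within 3xTg, 3 of 4 NAVI libraries lay below all VehN libraries (log2 -0.41, SE 0.157, edgeR adjusted p = 0.0974), and the difference was -0.50 without VehN replicate 1 (edgeR adjusted p = 0.0318). Without that library the calls over all genes for NAVI in 3xTg went from 0 to 3578. Between VehN and VehD the log2 difference of Hspa5 was -0.37 (edgeR unadjusted p = 0.0282, edgeR adjusted p = 0.973).

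Hspa5 moved from library to library together with other genes of the ER folding machinery. The 5 non-member genes whose log2 CPM most resembled its own over the 28 libraries were Manf, a secreted ER stress factor (r = 0.978), Xbp1, a transcription factor of the unfolded protein response (0.960), the disulfide isomerase Pdia4 (0.920), Hsp90b1, the Hsp90 of the ER (0.918), and Dnajb11, a J-domain protein of the ER (0.912). These genes were picked for their likeness and get no test. After each group mean was subtracted the values were 0.962, 0.933, 0.842, 0.810 and 0.842. Of 20 genes in a list of ER chaperones and unfolded protein response genes, 15 had r above 0.5 with Hspa5, against 5.61% of all tested genes, and the median r was 0.805 against -0.017. The stress factor Ddit3 (0.024), Atf4 (0.352), P4hb (0.354), Dnajb9 (0.367) and Herpud1 (0.479) were below 0.5. Manf averaged 41.7 ± 4.32 CPM (SD, n = 4) with VehN, 51.7 ± 5.91 (n = 4) with VehD and 33.3 ± 3.18 (n = 4) with NAVI in 3xTg. Xbp1 averaged 108 ± 14.9 CPM (n = 4), 127 ± 9.89 (n = 4) and 92.0 ± 9.04 (n = 4) in the same groups.

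**Figure D3:**
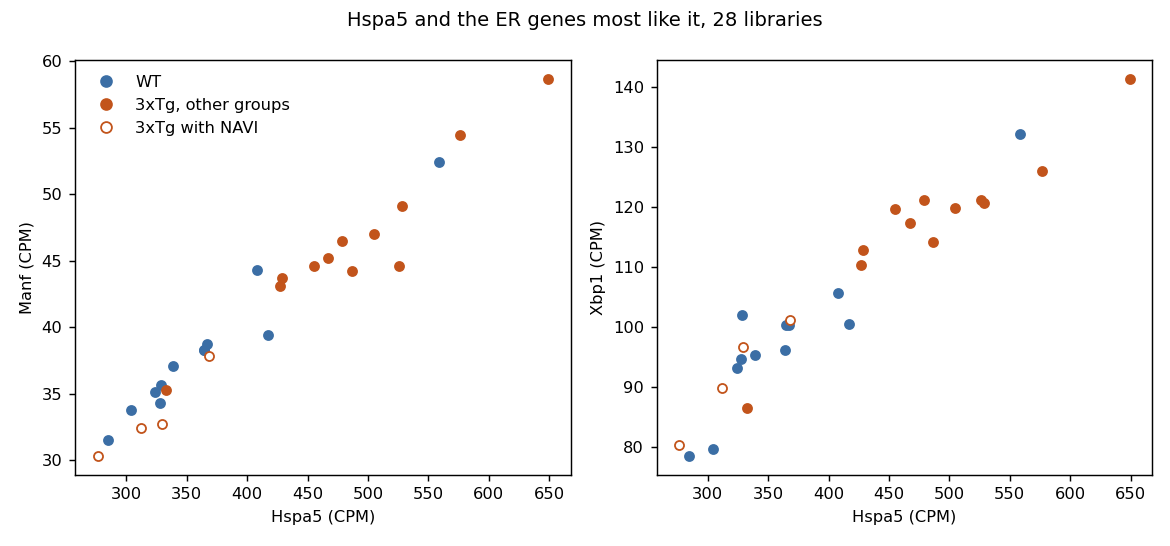
CPM of Manf and of Xbp1 against CPM of Hspa5, with a point per library (28 in all), coloured by genotype and open for 3xTg with NAVI. Both genes follow Hspa5 closely (r = 0.978 and 0.960 on log2 CPM), and the 4 open points lie toward the low end, between 276 and 368 CPM of Hspa5.

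An ER stress element, searched as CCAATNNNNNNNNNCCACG on both strands, was present in 0.113% of all 32851 windows. Hspa5 was the only gene of the 10 with a match among the 7 with a window, and 6 of the 17 ER list genes with a window held one: Hsp90b1, Calr, Canx, Pdia6, Dnajc3 and Creld2. No window of those 17 held a heat shock element. In contrast, 5 of 14 other heat shock factor targets (Dnaja4, Dnajb4, Fkbp4, Hspd1 and Hspe1) held a heat shock element and 0 of 14 the ER element. Hspa5 and 3 of the genes with the element on their own strand are shown to compare the match, with the fixed bases in capitals (RefSeq, mm10, strand of the gene).
Hspa5, chr2:34772020-34772049, plus strand: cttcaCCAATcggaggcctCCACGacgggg
Hsp90b1, chr10:86705632-86705661, minus strand: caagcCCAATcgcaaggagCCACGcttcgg
Canx, chr11:50325794-50325823, minus strand: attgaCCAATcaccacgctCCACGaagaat
Dnajc3, chr14:118937822-118937851, plus strand: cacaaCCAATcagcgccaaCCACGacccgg

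In these 4 stretches the spacer between the fixed bases differs, while its length of 9 bases is set by the pattern. The Hspa5 stretch lies inside the GENCODE span of the gene, so its element is not shown to lie in front of it. The spans of the genes outside the 10 were not compared. Whether the element is used in these tissues was not measured.

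Across the list of ER genes the log2 differences between genotypes were positive in 16 of 20 with vehicle, in 20 of 20 with DQ and in 8 of 20 with NAVI. With vehicle, 1 of 20 passed between genotypes, against 13.1% of all genes: Canx, a membrane chaperone for glycoproteins (log2 0.21, SE 0.0602, edgeR adjusted p = 0.0270). Canx CPM were 459.8, 512, 484 and 507 in WT, 485, 569, 623 and 535 with VehN, and 541, 593, 630.5 and 552 with VehD, so that 1 VehN library lay within the WT range. The Canx call was lost without WT Veh replicate 1 or 3, VehN replicate 3 or VehD replicate 3 (log2 0.17 to 0.20, edgeR adjusted p from 0.0569 to 0.104) and with the GC trend removed (0.07, edgeR adjusted p = 0.288). Unadjusted, 10 of 20 had p under 0.05 and were higher and 1 was lower, against 32.3% of all genes in either direction, and the median was 0.15 against 0.01 for all genes. The next smallest p belonged to the isomerases Pdia4 (0.30, edgeR adjusted p = 0.0664) and Pdia3 (0.22, edgeR adjusted p = 0.0857). With DQ all 20 log2 differences between genotypes were positive with a median of 0.23 against 0.00 for all genes. Of the 20, 14 had an unadjusted p under 0.05 against 17.4% of all genes. With edgeR 0 passed, against 3.05%, and 2 passed with DESeq2, which called 726 genes in all. With NAVI 12 of 20 genotype differences were negative with a median of -0.11 against 0.00 for all genes, 1 was called higher and 1 lower against 5.98% of all genes, and 1 was higher and 2 lower at an unadjusted p under 0.05 against 27.4%. In NAVI against VehN in 3xTg 0 passed with edgeR and 5 with DESeq2, which called 2000 genes in all. At an unadjusted p under 0.05, 1 was higher and 7 lower against 29.1% of all genes, and the median was -0.15. Dnajb9 (-0.37), Pdia3 (-0.34) and Dnajc3 (-0.29) led by p, with edgeR adjusted p of 0.0602, 0.0605 and 0.0619. Between VehN and VehD 9 of 20 were lower at an unadjusted p under 0.05, against 4.93% of all genes in either direction, with a median of -0.19, and 0 passed with edgeR or DESeq2.

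Dnaja1, a J-domain partner of Hsp70, and Hsp90aa1, the inducible Hsp90, moved with each other across libraries (r = 0.908, rho = 0.895, permutation p = 1e-05 each, the smallest the permutations can give, with an adjusted p of 0.000113 for r over 45 pairs). Without the 2 farthest libraries r was 0.896. Dnaja1 CPM were 190.4, 212, 194 and 183 in WT with Veh, 177, 232, 277 and 229.7 with VehN, 219.9, 248, 268 and 209 with VehD, and 186, 209, 173 and 174 with NAVI in 3xTg. The VehN group spanned the ranges of WT Veh and of VehD, and 2 of the 4 NAVI libraries lay below its lowest library. Hsp90aa1 CPM in the same groups were 1037, 1128, 1066 and 989.7, then 995, 1078, 1248 and 1138, then 1144, 1214, 1255 and 1087, and 1005, 1086, 869 and 943. For both genes the highest library of these 16 was a replicate 3 of a 3xTg vehicle group. NAVI against VehN in 3xTg gave -0.30 for Dnaja1 (SE 0.108, edgeR adjusted p = 0.0849) and -0.19 for Hsp90aa1 (SE 0.0758, edgeR adjusted p = 0.107). The NAVI effect differed between genotypes by -0.42 (edgeR adjusted p = 0.0693) and -0.28 (edgeR adjusted p = 0.0800), neither a call. Without VehN replicate 1 both differences in 3xTg passed (-0.39 and -0.23, edgeR adjusted p = 0.0144 and 0.0375), as they did without NAVI replicate 2 (-0.36 and -0.24, edgeR adjusted p = 0.0367 and 0.0399). The calls over all genes went from 0 to 3578 without VehN replicate 1 and to 2790 without NAVI replicate 2. Without either of these libraries the test of a different NAVI effect between genotypes passed as well for both genes (edgeR adjusted p from 0.0142 to 0.0334). There the calls over all genes went from 1331 to 4214 and to 3615. The genotype difference of Dnaja1 with vehicle was 0.25 (edgeR adjusted p = 0.0714), and 0.30 without VehN replicate 1 (edgeR adjusted p = 0.0163), where the calls over all genes went from 2142 to 3482. Dnaja1 overlaps the genes Smu1 and Gm6297 on the opposite strand and Mir207 on its own, and no source used here gives the strand setting of the counting.

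Both genes followed the GC trend of the libraries. For each library the slope of log2 CPM with the GC content of transcripts was taken, in log2 units per 10 percentage points, and Dnaja1 (GC content 41.16%) and Hsp90aa1 (43.74%) are the members poorest in GC. Dnaja1 was negatively related to that slope, with r = -0.942 (rho = -0.961, permutation p = 1e-05, the smallest possible, adjusted p = 0.00035 over 70 relations), at -0.927 without the 2 farthest libraries and at -0.936 within groups. For Hsp90aa1 r was -0.880 (rho = -0.857, same permutation p and adjusted p), -0.854 without the 2 farthest and -0.901 within groups. Hsph1 had r = -0.554 (rho = -0.527, permutation adjusted p = 0.0295 for r), -0.51 without the 2 farthest and -0.511 within groups. Hspb1 went the other way, with r = 0.488 (rho = 0.496, permutation adjusted p = 0.0494 for r), 0.475 without the 2 farthest and 0.65 within groups. For rho the permutation adjusted p of Hsph1 and of Hspb1 was 0.056. In the same 70 relations Hsph1 went as closely with the oligodendrocyte score (r = -0.562, permutation adjusted p = 0.0295, -0.636 within groups). Relations to a tissue score also passed for r in Hspa1b (endothelium -0.556, thalamus -0.490), Dnajb1 (endothelium -0.512, thalamus -0.507) and Hsp90ab1 (thalamus -0.526). None of these tissue relations passed for rho, and the part of tissue was not tested. Mean slopes were -0.124 with VehN, -0.100 with VehD and 0.140 with NAVI in 3xTg, and 0.0914 in WT with Veh. After removal of the GC trend from each library, an alternative chosen after seeing the data, the NAVI difference in 3xTg was -0.11 for Dnaja1 (edgeR adjusted p = 0.330) and -0.05 for Hsp90aa1 (edgeR adjusted p = 0.609). Hspa8, at 45.95% GC, followed the slope less closely (r = -0.338, rho = -0.362, permutation adjusted p = 0.153, -0.324 without the 2 farthest libraries, 0.052 within groups). With the trend removed its genotype difference was 0.20 with vehicle (edgeR adjusted p = 0.221) and 0.34 with DQ (edgeR adjusted p = 0.099998), and that of Hspa5 0.24 and 0.40, none of them called. Between genotypes with NAVI it was then 0.64 for Hspb1 (edgeR adjusted p = 0.159), -0.18 for Hsph1 (edgeR adjusted p = 0.132) and -0.09 for Hsp90aa1 (edgeR adjusted p = 0.136). With vehicle Hspb1 was then at 0.72 (edgeR adjusted p = 0.0672).

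**Figure D4:**
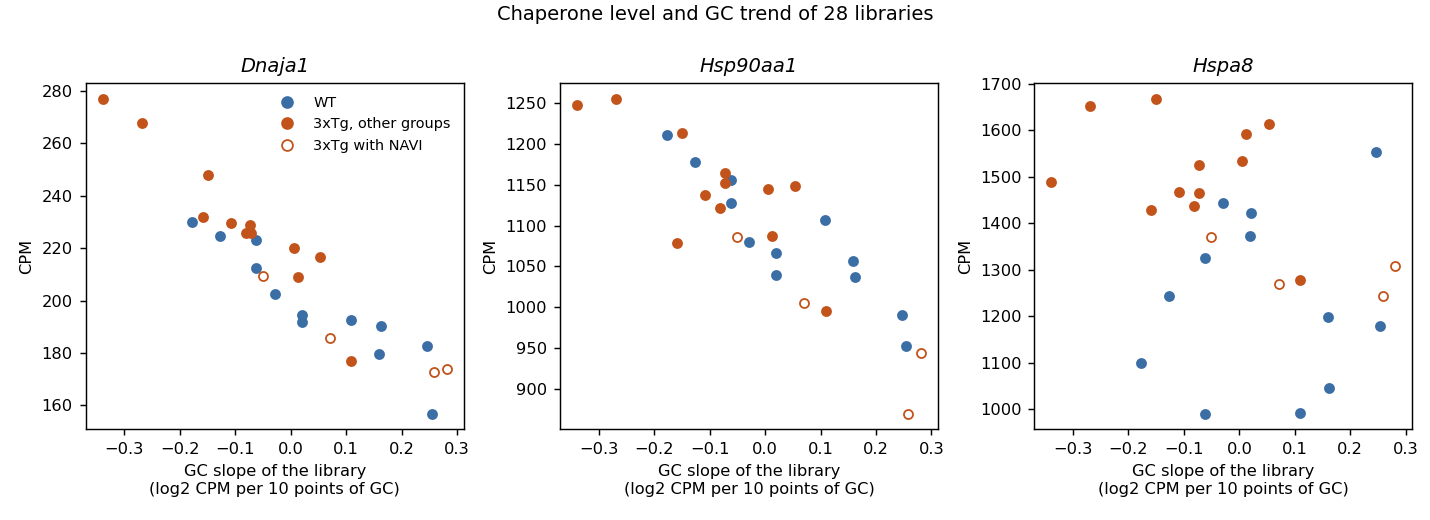
CPM of Dnaja1, Hsp90aa1 and Hspa8 against the GC slope of each of 28 libraries, coloured by genotype and open for 3xTg with NAVI. Dnaja1 and Hsp90aa1 decline along the slope (r = -0.942 and -0.880), while Hspa8 scatters (r = -0.338).

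The remaining genes changed little. Hsph1, the Hsp110 exchange factor, ran from 347 to 521 CPM, and with DQ its 3xTg libraries (483, 451, 463 and 435) lay above those of WT (376, 429, 432 and 394). Hspa8, Hspa5 and Hsph1 were thus the 3 of 10 genes without overlap between genotypes with DQ, all higher in 3xTg, against 5.71% of all genes tested. The Hsph1 difference of 0.17 missed the threshold (edgeR adjusted p = 0.291), and with NAVI it was -0.24 (SE 0.0814, edgeR adjusted p = 0.0785), or -0.29 without 3xTg NAVI replicate 2 (edgeR adjusted p = 0.0379). Hsp90aa1 between genotypes with NAVI was at -0.20 (edgeR adjusted p = 0.0992), or -0.26 without that library (edgeR adjusted p = 0.0410). In this comparison the calls over all genes went from 979 to 1920 without that library. Dnajb1, the main cytosolic J-domain helper of inducible Hsp70, ranged from 51.3 to 77.8 CPM and Hsp90ab1, the constitutive Hsp90, from 2043 to 2496 CPM, a 1.22-fold range and the narrowest of the 10. Hsp90ab1 differed between genotypes with vehicle by -0.09 (SE 0.0448, edgeR adjusted p = 0.167). In the order of group means, each gene's neighbouring groups overlapped in range for all 10 genes.

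Across the 10 genes, 20 of 45 pairs were positively related over the 28 libraries at a permutation adjusted p under 0.05, and 1 was negative, Hsp90aa1 with Hspb1 (r = -0.468, rho = -0.472, adjusted p = 0.0284, -0.449 without the 2 farthest libraries). Hsp90aa1 and Hspb1 related to the GC slope in opposite directions (r = -0.88 and 0.488). The part of the GC trend in the relations between members was not tested. The share of related pairs among all tested genes was not taken, and the permutations shuffled libraries across groups. Some of the 20 pairs were weak within groups, such as Hspa8 with Dnaja1 (r = 0.460, -0.002 within groups) and Hspa5 with Hsp90aa1 (0.509, 0.135 within groups). Others kept more of their relation there. Hspa8 and Hspa5 had r = 0.762 (rho = 0.817, adjusted p = 0.000113, 0.808 without the 2 farthest libraries, 0.597 within groups). Hspa5 and Hsph1 had r = 0.758 (rho = 0.741, adjusted p = 0.000113, 0.741 without the 2 farthest, 0.729 within groups). For Hspa1a with Hspa1b r was 0.550 (rho = 0.551, adjusted p = 0.00699, 0.577 without the 2 farthest, 0.661 within groups). Among the members, Dnajb1 had r = 0.584 with Hspa1a and 0.703 with Hspa1b (permutation adjusted p = 0.00363 and 0.000113). Of the non-member genes, those most like the mean of Hspa1a and Hspa1b were the splicing regulator Rbfox2 (0.700) and the choline kinase Chka (0.700). Next came Fam53c (0.697), Rbm12b1 (0.691) and Prkab2, a subunit of the energy sensor AMPK (0.681). None of these 5 non-member genes is in the chaperone lists, and the correlations are well below those around Hspa5. The pair had 92 to 290 counts a library against 10206 to 29342 for Hspa5, and the part of that was not tested.

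Counted over the 10 genes, only Hspa8 passed the threshold between genotypes. Between genotypes with vehicle, 1 of 10 was called, Hspa8, against 13.1% of all genes in either direction and 5.68% higher, and 3 of 10 had an unadjusted p under 0.05 against 32.3%. With DQ 1 of 10 was called between genotypes, Hspa8 again, against 3.05% in either direction and 1.68% higher, and 4 of 10 had an unadjusted p under 0.05 against 17.4%. With NAVI 0 of 10 were called between genotypes with edgeR or DESeq2, against 5.98%, and 3 had an unadjusted p under 0.05 against 27.4%. The median of the 10 log2 differences was 0.08, 0.16 and -0.05 in these 3 comparisons, against 0.01, 0.00 and 0.00 for all genes.

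**Figure D5:**
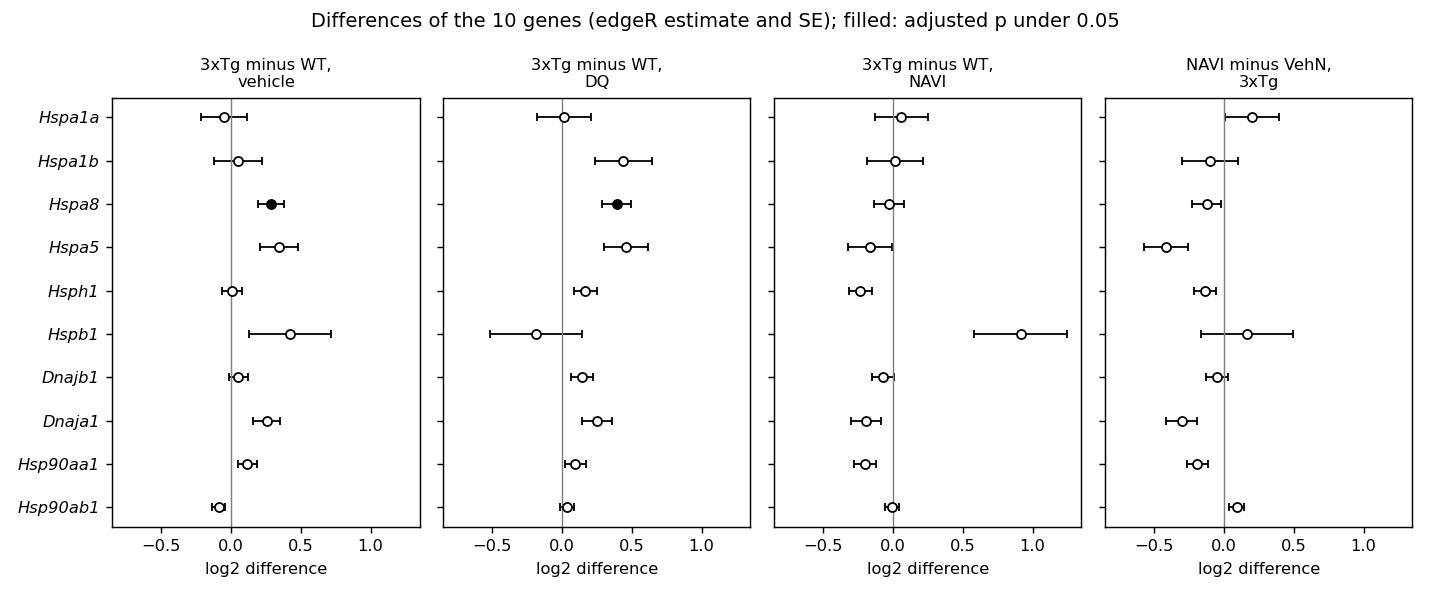
Log2 differences of the 10 genes with their SE for 3xTg minus WT with vehicle, with DQ and with NAVI and for NAVI minus VehN in 3xTg, filled where the edgeR adjusted p was under 0.05. The only filled points are those of Hspa8 with vehicle (0.28) and with DQ (0.39).

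No drug changed a member past the threshold of the edgeR test. For NAVI against VehN in 3xTg 0 of 10 were called with edgeR, as were 0% of all genes. An unadjusted p under 0.05 was seen for 3 of 10 (Hspa5, Dnaja1 and Hsp90aa1, all lower), against 29.1% of all genes. DESeq2 called 1 of 10, and 2000 genes in all. For DQ against VehD in 3xTg 0 of 10 were called with either tool, against 0% of all genes with edgeR, 0 had an unadjusted p under 0.05 against 1.83%, and log2 differences ran from -0.19 to 0.12. For NAVI in WT 0 of 10 were called with either tool, against 0% with edgeR, 0 had an unadjusted p under 0.05 against 7.74%, and the differences ran from -0.35 to 0.12. For DQ in WT the counts were likewise 0 called with either tool, against 0.00611%, and 0 at an unadjusted p under 0.05 against 3.38%, with differences from -0.20 to 0.48. At these sizes the widest 95% intervals were those of Hspb1, from -1.02 to 0.31 for NAVI in WT.

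The tests of a different drug effect in the 2 genotypes hold the vehicle labels as well, since the WT vehicle is labelled Veh only. For NAVI 0 of 10 were called with edgeR against 8.13% of all genes, and 2 of 10 (Dnaja1 and Hsp90aa1) had an unadjusted p under 0.05 against 32.7%. DESeq2 called these 2, and 3006 genes in all. For DQ 0 of 10 were called with either tool against 0% of all genes with edgeR, and 0 had an unadjusted p under 0.05 against 2.85%. Between VehN and VehD in 3xTg all 10 log2 differences were negative, from -0.37 to -0.05 with a median of -0.14 against -0.01 for all genes. None of the 10 was called with edgeR or DESeq2, against 0% of all genes with edgeR, and 3 (Hspa5, Hsph1 and Hsp90ab1) had an unadjusted p under 0.05 against 4.93%.

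Among the regulators and other targets of the heat shock response, 1 of 4 and 1 of 15 genes were called between genotypes with vehicle, against 13.1% of all genes. Of the 4 heat shock factor genes, Hsf4 fell in 3xTg with vehicle (log2 -0.48, SE 0.133, edgeR adjusted p = 0.0200). Its CPM were 6.25, 5.08, 5.001 and 6.23 in WT, 4.89, 4.22, 3.23 and 3.65 with VehN, and 5.15, 3.55, 3.66 and 3.95 with VehD, where 1 VehD library lay within the WT range. The Hsf4 call was lost without WT Veh replicate 1 or 4 (log2 -0.43 each, edgeR adjusted p = 0.0840 and 0.0932) and with the GC trend removed (-0.21, edgeR adjusted p = 0.104). Hsf1, the main activator of inducible chaperones, was at -0.21 (edgeR adjusted p = 0.205). Of the 15 other targets of heat shock factor 1, Hspa4l, an Hsp110 relative, rose with vehicle (0.19, edgeR adjusted p = 0.0460), with 5 higher and 1 lower at an unadjusted p under 0.05 against 32.3% of all genes. The Hspa4l call was lost without any of 9 single libraries (WT Veh replicates 1, 3 and 4, VehN replicates 2, 3 and 4, VehD replicates 1, 2 and 3, edgeR adjusted p from 0.0517 to 0.140). With NAVI 0 of 15 passed between genotypes with edgeR, against 5.98% of all genes, and 4 were higher and 3 lower at an unadjusted p under 0.05 against 27.4%. With DQ 0 of 15 passed with edgeR, against 3.05%, and 3 were higher and 1 lower at an unadjusted p under 0.05 against 17.4%. The DESeq2 calls were 4 and 0, against 1644 and 726 genes in all.

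In the other chaperone families the counts of calls stand against 13.1% of all genes between genotypes with vehicle and 5.98% with NAVI. The Hsp70 relative Hspa12a rose in 3xTg with vehicle (0.15, edgeR adjusted p = 0.0447) as 1 of 8 such genes, and Hspa2 with NAVI (0.44, edgeR adjusted p = 0.00510), also as 1 of 8. Of 14 other J-domain genes 1 passed, Dnajb12, an ER membrane member, with vehicle (-0.22, edgeR adjusted p = 0.0395). Of 17 co-chaperones of Hsp70 and Hsp90, Cdc37l1, a relative of the kinase-loading factor Cdc37, rose (0.29, edgeR adjusted p = 0.00527) and Bag6, which guides misplaced membrane proteins to degradation, fell (-0.32, edgeR adjusted p = 0.0381) with vehicle. The nucleotide exchange factor Hspbp1 was the 1 of these 17 called between genotypes with NAVI (0.65, higher in 3xTg, edgeR adjusted p = 0.0442). Of the ER genes, Atf4, a stress transcription factor, rose in 3xTg with NAVI (0.40, edgeR adjusted p = 0.0110) and Sel1l, a part of the ER degradation complex, fell (-0.18, edgeR adjusted p = 0.0363).

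Of these calls, those of Cdc37l1, Hspa2 and Atf4 held without each single library. The Hspa12a call was lost without any of 8 single libraries (edgeR adjusted p from 0.0528 to 0.147), namely WT Veh replicates 1, 3 and 4, VehN replicates 3 and 4 and VehD replicates 1, 2 and 3. Dnajb12 was lost without any of 7 (0.0508 to 0.153), WT Veh replicates 1, 3 and 4 and replicates 2 and 3 of VehN and VehD. Bag6 was lost without any of 6 (0.0506 to 0.169), WT Veh replicates 1 and 4 and replicates 2 and 3 of VehN and VehD. Sel1l was lost without any of 6 (0.0531 to 0.141), WT NAVI replicates 1, 2 and 4 and 3xTg NAVI replicates 1, 3 and 4. Hspbp1 was lost without any of 6 (0.0600 to 0.159), WT NAVI replicates 2, 3 and 4 and 3xTg NAVI replicates 1, 3 and 4. With the GC trend removed, Atf4 was at 0.25 (edgeR adjusted p = 0.149), Bag6 at -0.08 (edgeR adjusted p = 0.118), Hspa4l at 0.04 (edgeR adjusted p = 0.615) and Cdc37l1 at 0.15 (edgeR adjusted p = 0.0529), all without a call. The calls of Dnajb12 (-0.11, edgeR adjusted p = 0.0669), Hspa12a (0.13, edgeR adjusted p = 0.0543) and Sel1l (-0.13, edgeR adjusted p = 0.0896) were lost there as well.

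In the 8 subunits of the cytosolic chaperonin CCT 0 passed with edgeR in any of the 10 comparisons. With vehicle 2 of them were higher and 2 lower at an unadjusted p under 0.05, against 32.3% of all genes, with 0 called by DESeq2. DESeq2 called 1 lower for NAVI in 3xTg, 1 lower between genotypes with NAVI and 2 lower for NAVI by genotype. Over all genes it called 2000, 1644 and 3006 in these comparisons. Of 5 other small heat shock genes 4 were tested and 0 passed in any comparison with edgeR or DESeq2, with 1 higher at an unadjusted p under 0.05 with vehicle against the same share. The 8 mitochondrial chaperones and proteases gave 0 calls between genotypes with vehicle with edgeR and 1 with DESeq2, which called 2845 genes in all. At an unadjusted p under 0.05, 2 were higher and 1 lower, again against 32.3%. Of 10 immediate early genes, another stress-responsive list, 3 were called lower in 3xTg than in WT with DQ, against 3.05% of all genes called. These were Arc (-0.94, edgeR adjusted p = 0.0356), Dusp1 (-0.83, edgeR adjusted p = 0.0470) and Nr4a1 (-0.83, edgeR adjusted p = 0.0491). Each of these 3 calls was lost without any of 7 single libraries (edgeR adjusted p from 0.0513 to 0.213), each library of the comparison except WT DQ replicate 2. With the GC trend removed they were lost too, at -0.77 for Arc, -0.77 for Dusp1 and -0.71 for Nr4a1 (edgeR adjusted p = 0.0814, 0.0721 and 0.112). For DQ against vehicle, 10 of the 10 differences were positive in WT (median 0.51) and 6 of 10 in 3xTg (median 0.07). The medians of all genes were -0.003 and -0.002, and 0 of the 10 were called in either genotype.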

How the data were processed

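The labels' protocols describe poly(A) libraries of hippocampal RNA that keep the strand, sequenced as paired reads. The deposited counts are raw counts per gene made by the authors, 1 column per library, and 0 columns were left unused. STAR, Subread and featureCounts and the build mm10 are named per the submitters' processing notes, without versions. No source used here gives the annotation, the strand setting or how reads with several matches were counted. The members and gene lists were chosen with earlier results of these data known.

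Tests were edgeR 4.0.16 quasi-likelihood tests (limma 3.58.1, R 4.3.3) with TMM scaling and the filterByExpr filter by group, which removed 7693 genes. All 28 libraries entered 1 fit with 1 coefficient per group, and 10 comparisons were contrasts of it. P-values are two-sided and adjusted by Benjamini-Hochberg over all 16369 genes of a comparison, and a call is an adjusted p under 0.05. The standard error is the absolute log2 difference over the square root of F. The vehicle comparison set the mean of VehN and VehD against WT Veh, in 3xTg the reference of NAVI was VehN and that of DQ was VehD, and in WT it was Veh for both. Sums and scores of marker genes and correlations used CPM and log2 CPM (prior count 2), with 100000 resamples per permutation test. The analysis was tested on simulated data.

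Named are all 10 members, up to 3 genes by smallest p and the called genes of a list. The 5 non-member genes most like Hspa5 or the Hspa1a and Hspa1b pair are named too. Genes with values beyond that rule were chosen after their values were seen. A gene of the lists is not reported here. Replicate numbers showed no pairing of the libraries on average: the deviations of 84 same-numbered pairs correlated at 0.0301 in the mean. The values ran from -0.400 to 0.463, with 32 pairs over 0.1, so the mean does not settle pairing between single groups. No 2 libraries of a group agreed within sampling noise (lowest chi-square per degree of freedom 12.3). Alternatives were RLE scaling, DESeq2 1.42.0, no low count filter, the replicate block, choroid plexus and thalamus scores as covariates, only the groups compared, Hspa1a and Hspa1b summed, and each library left out. Removing the GC trend and leaving out 8 libraries with a thalamus score above 0.5 were added after seeing the data.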

Additional observations from a re-analysis of the deposited data

Results flagged for a closer look

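In 3 of the 70 groups of 4 libraries, over the 10 genes, 1 library stood far from the others. Chance flags about 1 in 20 groups. Hspa1a in 3xTg VehN replicate 3 was at 3.90 CPM, with the other 3 libraries between 2.59 and 2.76. Dnajb1 in 3xTg NAVI replicate 1 was at 51.3 CPM, with the others between 61.1 and 61.6. Hsp90ab1 in WT NAVI replicate 4 was at 2463 CPM, with the others between 2230.0 and 2252.

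For 13 genes of the chaperone lists, none of them among the 10, the effect of NAVI differed between 3xTg and WT by the interaction test of edgeR. In that test 8.13% of all genes were called. By list they were 1 of 4 heat shock factors, 1 of 15 other targets, 1 of 8 other Hsp70 genes and 1 of 14 other J-domain genes. Of 17 co-chaperones 4 were higher and 1 lower, and of 20 ER genes 1 higher and 1 lower. The mitochondrial list held 2 of 8, the CCT list 0 of 8 and the small heat shock list 0 of 4. The log2 difference was positive for Dnajb12 (0.40), Ddit3 (0.43), Ubb (0.69), Hspa2 (0.42), Bag6 (0.64), Lonp1 (0.51), Clpp (0.72), Hspbp1 (1.11), Fkbp8 (0.86), Hsf4 (0.76) and Cdc37 (0.52). It was negative for Dnajb9 (-0.53) and Cdc37l1 (-0.35). Adjusted p ran from 0.0427 to 0.0478, and the call of each was lost without 9 to 11 of the single libraries. With the GC trend removed none of the 13 passed (adjusted p from 0.0791 to 0.728). The different vehicle labels of the genotypes cannot be told apart from this difference.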

How the results depend on the processing

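The number of the 10 genes called moved with the setting in 5 comparisons. Between genotypes with vehicle it was 1, and 0 without a low count filter, with only the groups compared or with the GC trend removed, 3 with the tissue scores as covariates, 2 without the high-thalamus libraries, and 0 to 3 with single libraries left out. For NAVI in 3xTg it was 0, and 1 with DESeq2, 2 without the high-thalamus libraries and 0 to 3 with libraries left out. Between genotypes with NAVI it was 0, and 1 with only the groups compared and 0 to 2 with libraries left out. Between genotypes with DQ it was 1, and 0 without the filter, with the tissue scores, with the GC trend removed or without the high-thalamus libraries, 2 with only the groups compared, and 0 to 1 with libraries left out. For NAVI by genotype it was 0, and 2 with DESeq2, with the tissue scores or without the high-thalamus libraries, and 0 to 2 with libraries left out. The cause was not tested.

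With the replicate block, although the numbers showed no pairing on average, the counts in the same 5 comparisons were 3, 2, 1, 2 and 1. With this block the calls over all genes went from 2142 to 3283, 0 to 2317, 979 to 1884, 500 to 611 and 1331 to 3315. In the other 5 comparisons 0 of 10 were called under every setting run. Of 1900 single values of the 10 genes under other settings, 1710 kept direction and side of the threshold, 24 lost and 36 gained a call, 130 changed sign without a call, and 0 called values turned. Counts over all genes with vehicle ran from 1118 to 5033 over the settings and from 873 to 3482 with libraries left out, and for NAVI in 3xTg from 0 to 2514 and from 0 to 3578. Between genotypes with NAVI they ran from 535 to 1884 and from 375 to 1920, with DQ from 157 to 726 and from 263 to 632, and for NAVI by genotype from 0 to 4925 and from 0 to 4214. At 43 to 290 counts a library, Hspa1a, Hspa1b and Hspb1 are the genes whose differences are least precise.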

Other observations

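Cirbp, a cold-inducible RNA-binding protein chosen here after its values were seen, ran opposite to Hspa5 over the 28 libraries, with r = -0.820 and -0.813 within groups, the third lowest value of the genes tested. Its level was 30.9 to 61.7 CPM. For the related Rbm3 the value was -0.307.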
